A study of Mus musculus with 9 samples.

Results

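The clustered protocadherin genes were followed in cultured mouse spermatogonial stem cells (SSCs) that carried 4-hydroxytamoxifen (4OHT) treatment alone or one of a pair of PRMT5 constructs. Members were taken by gene symbol from the alpha, beta and gamma clusters of chromosome 18, and a member had to reach 12 counts in at least 3 of the 9 libraries. Of 58 such genes among the 53801 genes in the table, 44 passed, namely 5 of 14 in the alpha cluster, 17 of 22 in the beta cluster and 22 of 22 in the gamma cluster. The choice used the amount of counts only and not the difference between groups, although the MU libraries were deeper than the others and reached 12 counts more easily. Some low members passed mainly through the 4OHT libraries, where they were highest. Pcdha9 reached 12 counts in 3 4OHT, 0 MU and 1 OE libraries, and Pcdhb4 in 3, 1 and 1. For such members a lower value with a construct is partly built in by the rule. Pcdha1 and Pcdhb13 passed with 3 libraries at 12 counts or more, and Pcdha4 and Pcdha7 were left out with 2.

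All 9 libraries came from an SSC line of Prmt5 flox/flox; Rosa26-CreERT2 mice and treated in vitro with 1 µM 4OHT, which drives Cre into the nucleus to delete Prmt5. The 3 libraries labelled 4OHT were read as knockout cells without a PRMT5 construct. The study does not say whether they received an empty lentivirus, so an effect of infection cannot be told apart from that of a construct. The 3 libraries labelled MU were read as knockout cells that received a catalytically dead PRMT5 by lentivirus, and the 3 libraries labelled OE as knockout cells that received wild-type PRMT5. The labels do not spell out MU and OE, so each statement on a construct rests on this reading of the study's methods. No library of cells without 4OHT was analysed here. The study's methods describe SSC culture on mitomycin C treated fibroblast feeder cells, and the sources do not say whether feeder cells were removed before RNA was taken or whether the 3 libraries of a group came from separate cultures. The p-values below therefore measure only the spread between these libraries, which may be technical.

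Clustered protocadherins are cadherin-like adhesion proteins of the cell surface that bind the same isoform on a neighbouring cell, and they are best known for giving each neuron its own surface identity. In the alpha and gamma clusters, each gene has its own promoter and a variable exon for the extracellular part, which is spliced to constant exons shared by the whole cluster. Beta genes are single-exon genes with no shared constant part, and the C-type genes at the end of the alpha and gamma clusters are expressed more broadly than the others. In the GRCm38 annotation, all lie on the forward strand, with the alpha cluster at chr18:36930184-37187661, the beta cluster at chr18:37264938-37524479 and the gamma cluster at chr18:37661793-37841873. The constant part holds 3 exons and 2860 bases in the alpha cluster, and 3 exons and 2116 bases in the gamma cluster. Reads from a constant exon fit every gene of the cluster, so sums over a cluster are given beside the genes.

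Total counts were between 78751996 and 365719548 per library, and levels are given as CPM, with library sizes scaled by the TMM method. About 4 counts were taken to stand for 1 read pair, a setting that the sources do not state. The floor taken for a library, 12 counts, came to between 0.0317 and 0.158 CPM (counting error only). Prmt5 was at 30.3 ± 1.92 CPM (SD, n = 3) in 4OHT, at 146 ± 0.957 CPM in MU and at 1076 ± 7.61 CPM in OE, so both construct groups carried more Prmt5 reads than 4OHT and OE carried the most. These counts do not check the deletion, since reads of the deleted exons were not counted apart. Fibroblast markers summed to 9661 to 11548 CPM in 4OHT, 5161 to 5234 CPM in MU and 4050 to 4120 CPM in OE. Germ cell markers of spermatogonia were present in every library, with Ddx4 at 298 ± 16.9 CPM in 4OHT, 551 ± 23.4 CPM in MU and 590 ± 16.1 CPM in OE, and Gfra1, the GDNF co-receptor of undifferentiated spermatogonia, at 120 ± 4.09 CPM, 27.5 ± 0.786 CPM and 28.2 ± 0.717 CPM.

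In all 3 clusters, the summed level was lower with either construct than with 4OHT alone. The gamma cluster carried nearly all of it. Its sum was 662, 687 and 796 CPM in the 4OHT libraries, 184, 184 and 184 CPM in the MU libraries and 149, 149 and 150 CPM in the OE libraries. All 6 construct libraries thus lay far below all 4OHT libraries, with a log2 ratio of the means of -1.96 for MU and -2.26 for OE. The gamma genes made up 96.1%, 95.2% and 95.8% of the counts of all 44 members in 4OHT, MU and OE.

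The beta sum was 24.6, 23.4 and 21.1 CPM in 4OHT, 8.10, 7.03 and 7.46 CPM in MU, and 5.60, 4.22 and 4.59 CPM in OE. The 3 groups did not overlap, and the log2 ratio to 4OHT was -1.61 for MU and -2.26 for OE. The alpha sum was small, with 5.19, 5.47 and 6.75 CPM in 4OHT, 1.97, 1.78 and 1.76 CPM in MU, and 1.90, 1.60 and 1.51 CPM in OE. Here MU and OE overlapped, and both lay below 4OHT, with log2 ratios of -1.66 and -1.80. These sums are descriptions and were not tested.

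**Figure D1:**
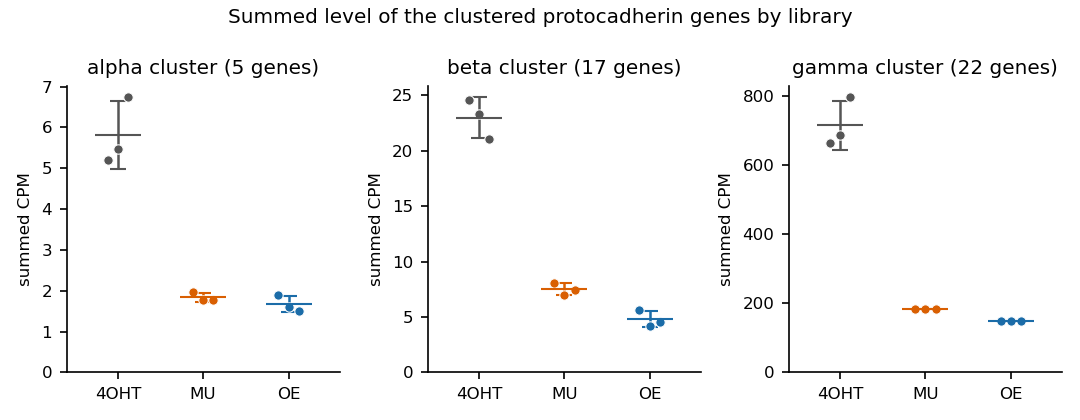
Summed CPM of the members of each cluster (vertical axes, linear from 0) in the 4OHT, MU and OE libraries. Points are libraries, and bars are the mean and SD of 3 libraries. In each cluster all MU and OE points lie below all 4OHT points, and MU lies above OE in the beta and gamma clusters.

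Gene by gene, 42 of the 44 members entered the test (edgeR quasi-likelihood test, Benjamini-Hochberg adjustment over all 22452 genes tested, threshold 0.05). Pcdhb8 and Pcdhb13 were too low to be tested. In MU against 4OHT, 32 of the 42 fell, where 26.5% of all genes tested fell. Pcdha9, which passed the rule mainly through the 4OHT libraries, is among the 32. In the same comparison 0 members rose, where 29.5% of all genes rose, and 0 had an unadjusted p under 0.05 upwards, also 0 by DESeq2. In OE against 4OHT, 35 of the 42 fell, where 27.9% of all genes fell, and 0 rose, where 29.9% of all genes rose, again with 0 at an unadjusted p under 0.05 and 0 by DESeq2. Both comparisons use the same 4OHT libraries and are not independent of each other. Alpha genes share constant exons, and so do gamma genes, so the 42 members may not be separate observations either.

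The median log2 fold change of the tested members was -1.72 in MU, beside 0.04 over all genes tested, and -2.11 in OE, beside 0.02 over all genes. For 34 members all MU libraries lay below all 4OHT libraries, which 30.1% of all genes did, and for 37 members all OE libraries did so, which again 30.1% of all genes did. Among the 26 tested members with a mean of 1 CPM or more, 25 fell in MU and 26 in OE, so the members without a call were mostly those with few counts. In a bulk sample, fewer cells that express a gene and less RNA of it per cell cannot be told apart.

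Marker RNA of other cell types differed between these groups, and whether cell numbers differed was not tested. Over all genes tested, 29.5% rose and 26.5% fell in MU, and 29.9% rose and 27.9% fell in OE. All fibroblast markers were above 0.1 CPM in every group. Of these 13 markers, 12 fell and 1 rose in MU, and 13 of 13 fell in OE, with median log2 fold changes of -0.90 and -1.32. Macrophage markers went the other way, with sums of 170 to 188 CPM in 4OHT, 1138 to 1171 CPM in MU and 2213 to 2338 CPM in OE, and 10 of 11 rows rose in each comparison. The spermatogonia markers summed to 2360 to 2417 CPM in 4OHT, 3020 to 3113 CPM in MU and 3257 to 3295 CPM in OE, but the list was split, with 6 of 12 genes that rose and 5 that fell in each comparison. Etv5 (log2 fold changes -3.18 in MU and -3.38 in OE), Gfra1 (-2.13 and -2.09), Ret, Zbtb16 and Nanos3 fell, and the abundant genes Dazl, Uchl1, Ddx4 and Lin28a were among those that rose. The part of these shifts in the protocadherin values was not tested.

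**Figure D2:**
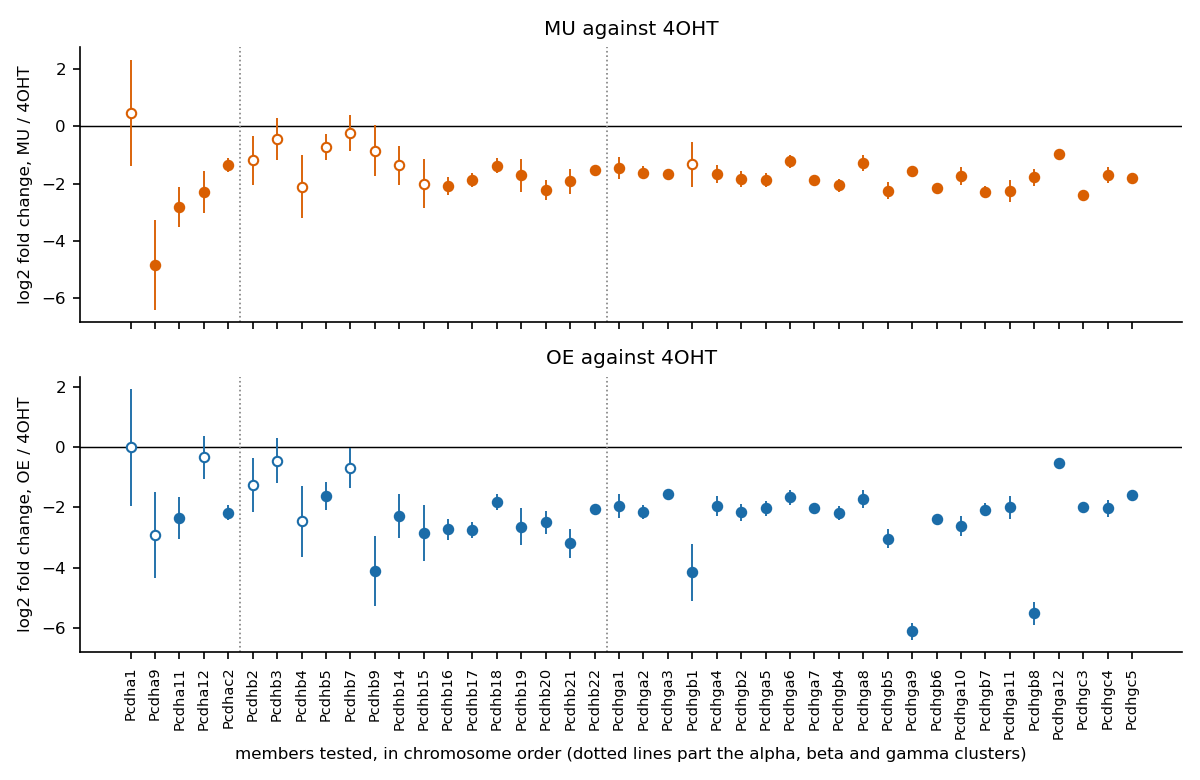
Fitted log2 fold change of each of the 42 tested members with its standard error (vertical axes), in chromosome order, for MU against 4OHT above and OE against 4OHT below. Filled points passed the test and open points did not. The filled points all lie below 0, and Pcdhga9 and Pcdhgb8 lie lowest in OE.

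The alpha cluster was nearly silent. Of its 14 genes, 9 stayed under the rule, Pcdhac1 among them with at most 6 counts in any library. The C-type gene Pcdhac2 (chr18:37143503-37187657) held most of what was measured, with 60.9% of the alpha sum in 4OHT, 76.0% in MU and 46.8% in OE. It stood at 2.81, 3.59 and 4.21 CPM in 4OHT, 1.76, 1.45 and 0.980 CPM in MU, and 0.677, 0.930 and 0.740 CPM in OE. The 3 groups formed 3 separate ranges for Pcdhac2. Its log2 fold change was -1.34 in MU (SE 0.239, edgeR adjusted p = 0.000257) and -2.18 in OE (SE 0.253, edgeR adjusted p = 4.58e-06).

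The variable alpha genes had means of 1.199 CPM or less in every group. Pcdha11 (the identifier ENSMUSG00000007440, as the symbol stands on 2 identifiers) was at 0.474, 1.48 and 1.64 CPM in 4OHT, 0.0297, 0.111 and 0.370 CPM in MU, and 0.172, 0.267 and 0.255 CPM in OE. All construct libraries lay below all 4OHT libraries, and the fall passed the test in MU (log2 fold change -2.81, SE 0.691, edgeR adjusted p = 0.0032) and in OE (-2.36, SE 0.696, edgeR adjusted p = 0.00998). Pcdha12 had 0.663 ± 0.373 CPM in 4OHT, 0.132 ± 0.0874 CPM in MU and 0.529 ± 0.467 CPM in OE (SD, n = 3), where its fall in MU was called (-2.30, SE 0.740, edgeR adjusted p = 0.0166) and its OE value was not (-0.34, SE 0.710, edgeR adjusted p = 0.712). The MU call of Pcdha12 was lost without the 4OHT library 1 (edgeR adjusted p = 0.0664) and without the MU library 3 (0.0574). The MU and OE values of Pcdha12 did not differ by test (edgeR adjusted p = 0.247). Pcdha9 had 12 to 48 counts in the 4OHT libraries, 0 to 7 in the MU libraries and 0 to 17 in the OE libraries, too close to the floor for a fold change. It passed the test in MU, but not without the 4OHT library 1 or without the MU library 2 or 3 (edgeR adjusted p between 0.0718 and 0.124). Pcdha1 had 12 counts or more in 1 library of each group and was called in neither.

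In the beta cluster, the 4 genes with the highest mean CPM over the 9 libraries were Pcdhb22, Pcdhb17, Pcdhb16 and Pcdhb18, all in its downstream part. Pcdhb22 (chr18:37517871-37524479) was the most abundant with 32.5% of the beta sum in 4OHT, and its level per kilobase of exon, 1.13 ± 0.107 CPM, was the highest of the beta genes. It was at 7.84, 7.95 and 6.67 CPM in 4OHT, 2.76, 2.40 and 2.63 CPM in MU, and 2.19, 1.82 and 1.46 CPM in OE. None of the 3 ranges overlapped. The log2 fold change of Pcdhb22 was -1.53 in MU (SE 0.157, edgeR adjusted p = 1.43e-06) and -2.05 in OE (SE 0.163, edgeR adjusted p = 1.00e-07).

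Pcdhb17 was at 3.59, 3.04 and 3.44 CPM in 4OHT, 0.789, 1.14 and 0.778 CPM in MU, and 0.541, 0.620 and 0.357 CPM in OE. It too had 3 separate ranges, with log2 fold changes of -1.89 in MU (SE 0.240, edgeR adjusted p = 1.23e-05) and -2.74 in OE (SE 0.258, edgeR adjusted p = 5.45e-07). Pcdhb16 and Pcdhb18 also lay lower in every construct library than in any 4OHT library. Pcdhb16 went from 2.47 ± 0.223 CPM to 0.580 ± 0.0638 CPM in MU and 0.382 ± 0.207 CPM in OE, and Pcdhb18 from 1.76 ± 0.203 CPM to 0.683 ± 0.162 CPM and 0.501 ± 0.101 CPM. Their log2 fold changes were -2.09 and -1.37 in MU (SE 0.323 and 0.264) and -2.73 and -1.82 in OE (SE 0.345 and 0.275), all past the threshold.

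Over the beta cluster, 7 of 15 tested genes fell in MU and 11 of 15 in OE, where 26.5% and 27.9% of all genes tested fell. All 15 had a negative fold change in each comparison. The median log2 fold change was -1.53 in MU and -2.46 in OE. The uncalled genes were low ones, such as Pcdhb3 with 0.163 ± 0.0269 CPM in 4OHT and Pcdhb7 with 0.197 ± 0.0117 CPM. Pcdhb13, not tested, had 2 to 16 counts in 4OHT and 0 in all 3 OE libraries, which is under the floor of 12 counts in each. Pcdhb21 and Pcdhb22 overlap in the annotation, and 7.73% and 5.39% of their windows of 100 bases occur in another member, so reads may be shared between them.

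The gamma cluster holds 3 kinds of gene, the A and B subfamilies and the C-type genes Pcdhgc3, Pcdhgc4 and Pcdhgc5. All 22 were tested. In MU 21 fell and Pcdhgb1 was not called, and in OE 22 of 22 fell, with median log2 fold changes of -1.76 and -2.04. Of all genes tested, 26.5% fell in MU and 27.9% in OE. By subfamily, 12 of 12 gamma A genes, 6 of 7 gamma B genes and 3 of 3 C-type genes fell in MU. The gamma genes share 2116 constant bases, whose reads fit every gene of the cluster, so these calls may not be independent of each other.

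Pcdhgc3 (chr18:37806364-37841873), a C-type gene, was the most abundant member in every library. Per kilobase of exon it stood at 53.5 ± 7.48 CPM in 4OHT, 10.2 CPM in MU and 13.5 CPM in OE. In 4OHT the next members per kilobase were Pcdhgb8 at 14.4 ± 6.02 CPM and Pcdhga9 at 8.81 ± 1.61 CPM, which lay within their spread of each other, and then Pcdhga7 at 6.77 ± 0.742 CPM. Pcdhgc3 was at 254, 293 and 336 CPM in 4OHT, 56.3, 57.6 and 54.5 CPM in MU, and 71.4, 82.6 and 67.9 CPM in OE. The 3 ranges were separate, and here MU was the lowest. Pcdhgc3 was 5.24-fold lower in MU (log2 fold change -2.39, SE 0.0947, edgeR adjusted p = 1.18e-10) and 3.98-fold lower in OE (-1.99, SE 0.0937, edgeR adjusted p = 4.56e-10). The antisense gene BC037039 overlaps the start of Pcdhgc3, and its level fell as well, from 6.66 ± 1.83 CPM to 2.34 ± 0.747 CPM in MU and 0.694 ± 0.433 CPM in OE. The sources do not state whether strand was used, so reads of the overlap cannot be told apart.

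The other C-type genes had lower levels. Pcdhgc5 was at 22.1, 21.8 and 22.1 CPM in 4OHT, 5.63, 6.34 and 6.85 CPM in MU, and 9.38, 6.14 and 6.29 CPM in OE. Both constructs lay below 4OHT and overlapped each other, with log2 fold changes of -1.81 in MU (SE 0.142, edgeR adjusted p = 9.39e-08) and -1.60 in OE (SE 0.143, edgeR adjusted p = 3.09e-07). Pcdhgc4 was at 6.24 ± 1.67 CPM in 4OHT, 1.91 ± 0.710 CPM in MU and 1.52 ± 0.338 CPM in OE, and fell in both comparisons (log2 fold changes -1.70 and -2.03, SE 0.279 and 0.289).

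Among the abundant A and B genes, Pcdhga7 was at 39.6, 32.2 and 34.1 CPM in 4OHT, 11.1, 8.54 and 9.20 CPM in MU, and 8.36, 8.35 and 9.12 CPM in OE. Both constructs lay well below 4OHT and overlapped, with log2 fold changes of -1.88 in MU (SE 0.107, edgeR adjusted p = 3.80e-09) and -2.03 in OE (SE 0.109, edgeR adjusted p = 1.74e-09). Pcdhgb4 (-2.07 and -2.20, SE 0.221 and 0.226) and Pcdhga2 (-1.62 and -2.14, SE 0.226 and 0.235) also fell with both constructs.

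Pcdhga12 had the smallest fall of the gamma cluster. It was at 15.6, 15.9 and 15.1 CPM in 4OHT, 7.88, 7.11 and 8.77 CPM in MU, and 13.4, 6.98 and 11.8 CPM in OE. The constructs lay below 4OHT, OE with a wide spread. The log2 fold change was -0.97 in MU (SE 0.176, edgeR adjusted p = 0.000307) and -0.54 in OE (SE 0.177, edgeR adjusted p = 0.0186), and the OE call was lost without the 4OHT library 2 (edgeR adjusted p = 0.0626), with the GC trend removed (log2 fold change -0.42, edgeR adjusted p = 0.0541) and when tested against a 1.5-fold change (edgeR adjusted p = 0.733). Its share of the gamma sum was 2.17% in 4OHT, 4.30% in MU and 7.17% in OE.

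**Figure D3:**
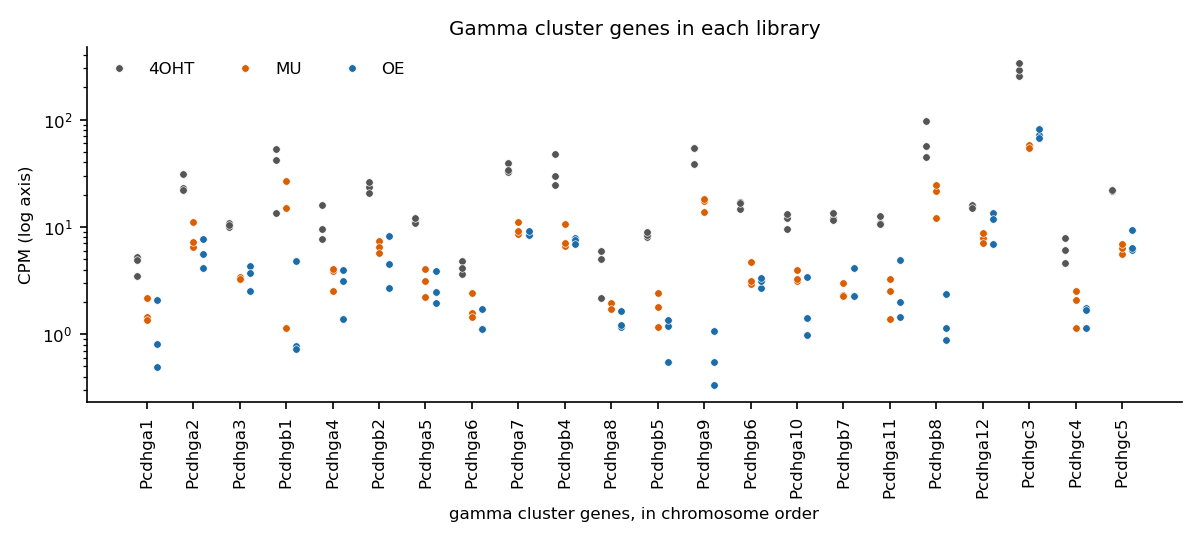
CPM of each of the 22 gamma cluster genes in each library (vertical axis, log scale), in chromosome order. Points are libraries of 4OHT, MU and OE. Pcdhgc3 is highest throughout, and the OE points of Pcdhga9 and Pcdhgb8 lie far below their MU points.

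Pcdhga9 and Pcdhgb8 were far lower in OE than in MU. Pcdhga9 (chr18:37736936-37841870) was at 38.9, 54.6 and 54.3 CPM in 4OHT, 17.5, 13.8 and 18.2 CPM in MU, and 0.332, 0.556 and 1.07 CPM in OE. Pcdhgb8 (chr18:37761801-37841870), which the annotation lists as a polymorphic pseudogene, was at 45.2, 56.6 and 98.0 CPM in 4OHT, 21.6, 12.2 and 24.4 CPM in MU, and 0.886, 2.38 and 1.14 CPM in OE. For both genes the 3 groups were separate, with OE the lowest. The gene Gm26672, at 1.46 ± 0.467 CPM in 4OHT (SD, n = 3), runs across Pcdhgb8 on the reverse strand, so a few of the reads may be shared.

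Pcdhga9 had a log2 fold change of -1.58 in MU (SE 0.198, edgeR adjusted p = 1.08e-05) and -6.12 in OE (SE 0.268, edgeR adjusted p = 2.26e-10). Pcdhgb8 had a log2 fold change of -1.79 in MU (SE 0.308, edgeR adjusted p = 0.000199) and -5.52 in OE (SE 0.393, edgeR adjusted p = 3.08e-08). Between the constructs, MU exceeded OE 23.2-fold for Pcdhga9 (log2 fold change 4.54, SE 0.260, edgeR adjusted p = 4.93e-07) and 13.3-fold for Pcdhgb8 (3.73, SE 0.377, edgeR adjusted p = 7.06e-05).

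These were the only members higher in MU than in OE by the edgeR test, 2 of 42, where 2.12% of all genes tested were higher. Pcdhgc3 was the only member lower in MU than in OE, where 1.06% of all genes were lower, by 1.32-fold (log2 fold change -0.40, SE 0.0909, edgeR adjusted p = 0.0289). The call of Pcdhgc3 was lost without any one of the MU libraries or without the OE library 1 or 2 (edgeR adjusted p between 0.0604 and 0.143). The count of members higher in MU was 5 without the OE library 3 and 4 without the OE library 1.

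All MU libraries lay above all OE libraries for 7 tested members, which 13.0% of all genes did, and below for 1, which 12.8% of all genes did. The 7 were Pcdhac2, Pcdhb17, Pcdhb21, Pcdhb22, Pcdhga8, Pcdhga9 and Pcdhgb8. Of the beta genes, 0 of 15 were called by edgeR between the constructs, with 4 at an unadjusted p under 0.05 and all 4 higher in MU. DESeq2 added Pcdhac2 and Pcdhb17 to the members higher in MU. Fibroblast markers were called higher in MU than in OE for 12 of 13 genes, where 2.12% of all genes tested were. Their median log2 fold change was 0.36, beside 0.44 for the 42 members and 0.01 over all genes. Macrophage markers were called lower in MU for 8 of 11 rows, where 1.06% of all genes were. A link between these markers and the members was not tested.

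The make-up of the gamma sum differed between the groups. C-type genes gave 45.1% of it in 4OHT, 34.9% in MU and 55.4% in OE. Gamma B genes gave 27.6%, 30.6% and 15.5%, and gamma A genes 27.2%, 34.5% and 29.1%. Pcdhga9 and Pcdhgb8 together gave 16.2% in 4OHT, 19.5% in MU and 1.42% in OE. Without them, the gamma sum was 148 ± 8.37 CPM in MU and 147 ± 1.15 CPM in OE (SD, n = 3), where the groups overlapped.

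**Figure D4:**
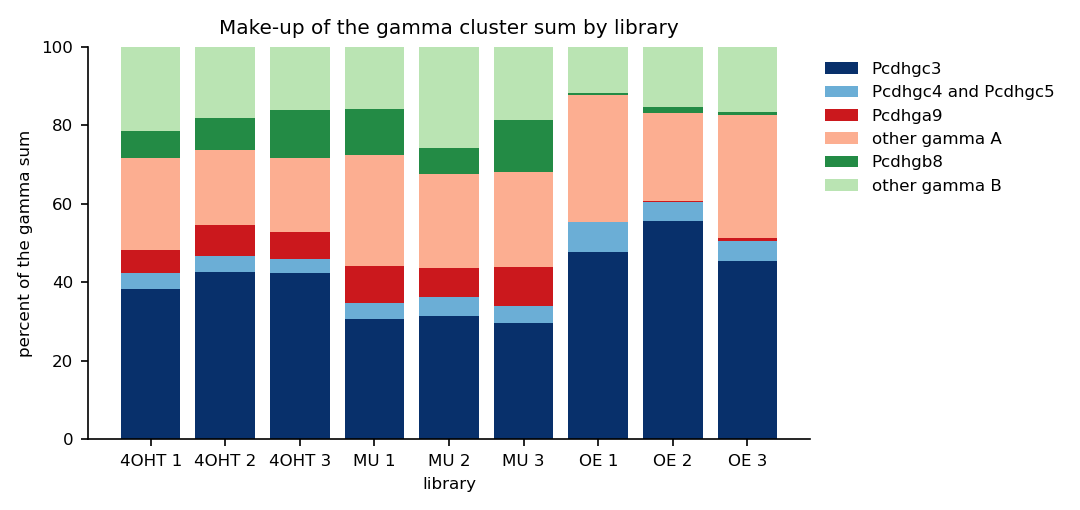
Share of the gamma cluster sum (vertical axis, percent) held by Pcdhgc3, by Pcdhgc4 and Pcdhgc5, by Pcdhga9, by the other gamma A genes, by Pcdhgb8 and by the other gamma B genes in each of the 9 libraries. Pcdhga9 and Pcdhgb8 nearly vanish from the OE libraries, where Pcdhgc3 holds the largest share.

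The sum varied less between libraries than its parts. In MU the gamma sum had a coefficient of variation of 0.206% over the 3 libraries and in OE of 0.299%, whereas the median coefficient of variation of a single gamma gene was 25.2% and 33.5%. In 4OHT these values were 9.92% for the sum and 14.0% for a gene. At about 4 counts per read pair, the spread of the MU and OE sums lies under counting error, so it is no measure of precision. Pcdhgb1 had the widest relative spread of the gamma genes in each group. It was at 53.6, 42.2 and 13.6 CPM in 4OHT, 1.14, 27.0 and 14.95 CPM in MU, and 0.775, 4.82 and 0.734 CPM in OE. MU overlapped both other groups, and the call was made in OE (log2 fold change -4.15, SE 0.948, edgeR adjusted p = 0.00181) but not in MU (-1.33, SE 0.7995, edgeR adjusted p = 0.177) or between the constructs (2.82, SE 0.914, edgeR adjusted p = 0.1546). Without the MU library 1, Pcdhgb1 passed between the constructs (edgeR adjusted p = 0.0241). Outside the constant exons, 32.3% of the 100-base windows of Pcdhgb1 and 34.8% of those of Pcdhga4 occur in another member, so the split of reads between these genes is uncertain.

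Gene models also differed in where they end. Of the 22 gamma models in the annotation, 17 end at base 37841873 and 5 end 3 bases earlier, at 37841870. The 5 are Pcdhga2, Pcdhga9, Pcdhgb1, Pcdhgb4 and Pcdhgb8, and all of them were among the 7 gamma genes with the highest level per kilobase in 4OHT. This grouping was made after the values were seen. The 5 summed to 198, 201 and 236 CPM in 4OHT, 62.0, 66.2 and 72.0 CPM in MU, and 17.6, 20.8 and 14.0 CPM in OE. The other 17 summed to 464, 486 and 559 CPM in 4OHT, 122, 117 and 113 CPM in MU, and 132, 128 and 136 CPM in OE. Between MU and OE the log2 ratio was 1.93 for the 5 and -0.17 for the 17. Against 4OHT the 17 had log2 ratios of -2.10 in MU and -1.93 in OE. Pcdhga9 and Pcdhgb8, the only members called higher in MU than in OE, are among the 5, so the ratio of the 5 is no separate support. The rest of the 5 were not called between MU and OE, with log2 fold changes of 0.52 for Pcdhga2, 0.13 for Pcdhgb4 and 2.82 for Pcdhgb1. No effect of the gene end is read from this. How the authors' counting divided reads of the constant exons between genes is not given in the sources used here, and its part in these values was not tested.

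The protocadherins outside the clusters, which lack the shared constant exons, were lower as well. Of 12 such genes, 9 fell and 1 rose in MU, and 10 fell and 2 rose in OE, with median log2 fold changes of -1.99 and -2.32. Over all genes tested, 26.5% fell and 29.5% rose in MU, and 27.9% fell and 29.9% rose in OE. Pcdh7 went from 187 ± 8.32 CPM in 4OHT to 26.2 ± 0.866 CPM in MU and 21.5 ± 0.712 CPM in OE (log2 fold changes -2.83 and -3.12), and Pcdh19 from 106 ± 0.809 CPM to 18.5 ± 0.889 CPM and 14.4 ± 1.44 CPM (-2.51 and -2.88). Pcdh8 rose with both constructs, from 0.481 ± 0.0583 CPM to 1.00 ± 0.243 CPM and 1.10 ± 0.369 CPM.

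Of 13 genes that flank or lie between the clusters, 7 rose and 2 fell in MU, and 8 rose and 3 fell in OE. Over all genes tested, 29.5% rose and 26.5% fell in MU, and 29.9% rose and 27.9% fell in OE. Nothing is read from the count of falls. Taf7, a subunit of the general transcription factor TFIID that lies between the beta and gamma clusters, rose from 153 ± 2.38 CPM in 4OHT to 274 ± 6.62 CPM in MU and 291 ± 2.54 CPM in OE (log2 fold changes 0.84 and 0.93, SE 0.0425 and 0.0426). The tested beta genes upstream of it and the gamma genes downstream of it all had negative fold changes in both comparisons.

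Known regulators of the clusters rose more often than they fell. Of 20 such genes, 10 rose and 3 fell in MU, and 13 rose and 3 fell in OE, with median log2 fold changes of 0.17 and 0.23. Over all genes tested, 29.5% rose and 26.5% fell in MU, and 29.9% rose and 27.9% fell in OE. CTCF and cohesin loop the promoters of the clusters to their enhancers, and Ctcf was at 64.9 ± 1.23 CPM in 4OHT, 64.8 ± 1.16 CPM in MU and 66.0 ± 2.44 CPM in OE, with no call in either comparison. Smchd1, which is known to keep the clusters repressed, rose from 155 ± 8.86 CPM to 313 ± 4.49 CPM in MU and 329 ± 9.78 CPM in OE (log2 fold changes 1.01 and 1.08, SE 0.0502 and 0.0504). Dnmt3b, the DNA methyltransferase known to methylate promoters of these genes, rose by log2 fold changes of 0.97 and 1.02. Between MU and OE, edgeR called 0 of the 20, where 2.12% of all genes tested were higher and 1.06% lower.

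Genes for partners and processing of the proteins, such as the proteases ADAM10 and gamma-secretase that cut them and the WAVE complex that binds them, had smaller median changes. Of 20 genes, 14 fell and 3 rose in MU, and 13 fell and 4 rose in OE, with median log2 fold changes of -0.43 and -0.37. Over all genes tested, 26.5% fell and 29.5% rose in MU, and 27.9% fell and 29.9% rose in OE. Adam10 was at 147 ± 4.28 CPM in 4OHT, 107 ± 1.10 CPM in MU and 112 ± 5.62 CPM in OE.

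**Figure D5:**
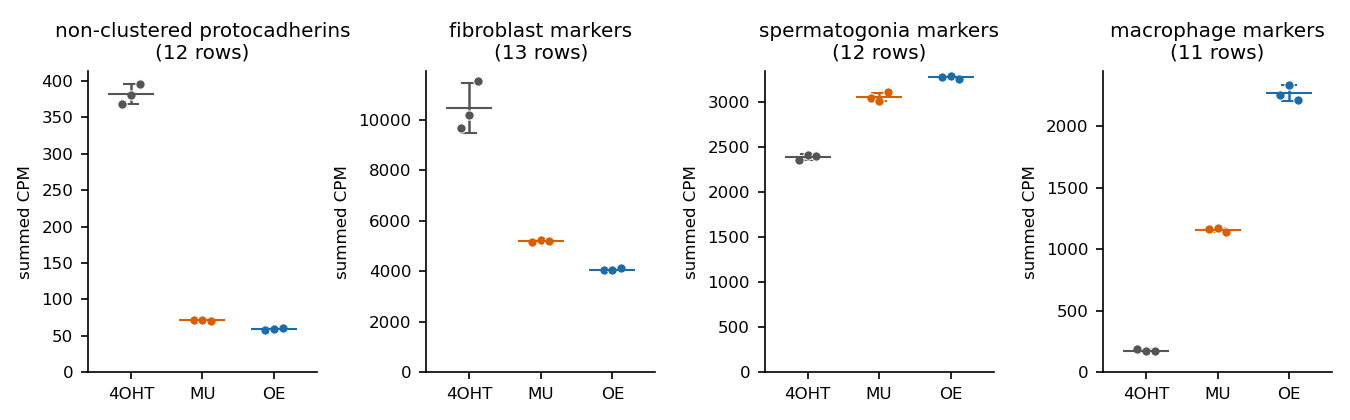
Summed CPM (vertical axes, linear from 0) of the non-clustered protocadherins and of fibroblast, spermatogonia and macrophage markers in the 4OHT, MU and OE libraries. Points are libraries, and bars are the mean and SD of 3 libraries. The sums of the non-clustered protocadherins and of the fibroblast markers are lower, and those of the spermatogonia and macrophage markers higher, in MU and OE than in 4OHT, although 5 of the 12 spermatogonia markers fell in each comparison.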

How the data were processed

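Libraries of mRNA were sequenced as paired reads (Illumina NovaSeq). According to the methods and the submitters' processing notes, the authors trimmed reads with BBmap and Trimmomatic 0.39, aligned them with HISAT2 2.2.1 to GRCm38 and quantified genes with StringTie 2.2.1. They deposited whole-number counts per gene, not normalized. How these were derived, the strand setting and the handling of reads with several alignments are not given in the sources used here.

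Here, genes with filterByExpr support (minimum count 10, total 15) were tested in all 9 libraries, 3 per group, with edgeR 4.0.16 (TMM, quasi-likelihood test, R 4.3.3), and adjusted p-values are Benjamini-Hochberg values over 22452 genes. The scripts were tested on simulated data. Total counts ranged from 78751996 to 365719548. With 4 counts taken as 1 read pair, libraries of a group differed by 2.58 to 10.0 times the counting variance, so none was read as a repeat deposit. Gene models, lengths and ends were from GENCODE vM21 (GRCm38), which held 53620 of the 53801 identifiers. Sequence was compared in windows of 100 bases outside the constant exons. DESeq2 1.42.0 and the other alternatives are given in the closing section.

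The members, the gene lists and the rule for named genes were chosen with earlier results of these data known. The rule named the C-type genes, the 4 members with the highest mean CPM per cluster and up to 3 called members per direction and comparison, and of each list up to 4 genes by mean CPM. Pcdhga12, Pcdhgb4, Pcdhga2, Gfra1, Etv5, Nanos3, Zbtb16, Pcdh8, Taf7, BC037039, Gm26672, 3222401L13Rik, Smchd1, Dnmt3b, Ctcf, Adam10 and the low genes given as examples were added to these as background, after their values were seen. The other genes named inside the span of the clusters were added in the same way. Lists were regulators, non-clustered protocadherins, partners, classical cadherins, neighbours and markers of 5 cell types. Itgam stands on 2 identifiers, both counted. No sequence is printed.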

Additional observations from a re-analysis of the deposited data

How the results depend on the processing

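Against 4OHT, the counts of members that fell stayed between 30 and 34 in MU and between 33 and 37 in OE under every alternative tried, and 0 rose under each. Leaving out 1 library gave 30 to 33 in MU and 34 to 36 in OE. Between MU and OE, the count higher in MU was 4 with DESeq2 in place of 2 and ran from 2 to 5 with 1 library left out, and the count lower in MU was 0 when tested against a 1.5-fold change and 0 to 1 with 1 library left out. The log2 ratios of the alpha sum moved without Pcdhac2, its only C-type and most abundant member, to -2.37 in MU, -1.36 in OE and, reversed, -1.01 between MU and OE, from 0.14. Those of the gamma sum moved without the C-type genes to -1.71, -2.56 and 0.85, and without Pcdhgc3 to -1.72, -2.48 and 0.76. The gamma ratio between MU and OE (0.30) moved little in size, but beyond its very small spread, which lies under counting error. It was 0.29 with RLE factors, 0.33 with library totals and 0.31 after thinning. With the length trend removed it was 0.29, and with the GC trend removed 0.28. In 2 settings chosen after seeing the data, the gamma ratios were -2.10, -1.93 and, reversed, -0.17 over the 17 genes that end at the last base of the cluster, and -2.02 in OE and 0.0094 between MU and OE without Pcdhga9 and Pcdhgb8. The fold change of Pcdha12 in OE, not called, reversed to 0.07 without the 4OHT library 1 and to 0.12 without the OE library 2, and ran from -1.24 to 0.12 with 1 library left out. The cause of these changes was not tested.

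The numbers 1 to 3 are not said to pair the libraries, and deviations from the group means correlated between -0.020 and 0.044 for libraries with the same number. With the replicate number as a block, 32 members fell in MU and 35 in OE, and 3 were higher and 1 lower in MU than in OE, where Pcdhga2 was added. For members near or under 12 counts a library, such as Pcdha1, Pcdha9, Pcdhb8 and Pcdhb13, the depth limits which differences can be seen.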

Other observations

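Classical cadherins and catenins, which form the adherens junctions, were mostly lower with the constructs. Of 12 genes, 11 fell and 1 rose in MU, and 10 fell and 1 rose in OE. Over all genes tested, 26.5% fell and 29.5% rose in MU, and 27.9% fell and 29.9% rose in OE. The median log2 fold changes of the 12 were -0.74 and -0.72, smaller than those of the clustered and non-clustered protocadherins. Cdh11 went from 277 ± 14.7 CPM in 4OHT to 87.4 ± 0.742 CPM in MU and 66.8 ± 1.70 CPM in OE (SD, n = 3), and Ctnnb1 from 849 ± 30.9 CPM to 768 ± 3.14 CPM and 764 ± 5.78 CPM.

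Markers of neurons and glia, in which the clustered protocadherins are best known, had low sums, with 46.0 to 49.7 CPM in 4OHT, 46.7 to 49.0 CPM in MU and 44.3 to 47.5 CPM in OE. Of 10 tested, 3 rose and 3 fell in MU, and 3 rose and 4 fell in OE. Over all genes tested, 29.5% rose and 26.5% fell in MU, and 29.9% rose and 27.9% fell in OE. Nothing is read from the counts of this list or of the Sertoli list. Sertoli cell markers summed to 35.3 to 39.9 CPM in 4OHT, 24.9 to 26.1 CPM in MU and 22.3 to 24.7 CPM in OE, where 3 of 8 rose and 3 fell in MU, and 3 rose and 4 fell in OE.

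Inside the span of the 3 clusters, 27 annotated genes are no member, and 12 of them reached 12 counts in a library. Gm26672, a processed transcript on the reverse strand, was at 1.46 ± 0.467 CPM in 4OHT, 0.0885 ± 0.0538 CPM in MU and 0.373 ± 0.407 CPM in OE, and 3222401L13Rik, a long noncoding RNA on the forward strand, was at 4.66 ± 0.608 CPM, 2.53 ± 0.465 CPM and 2.10 ± 0.0352 CPM. Both fell with each construct, as did BC037039 and Gm37165. Taf7, Slc25a2 and 4930517L18Rik, a long noncoding RNA on the forward strand, rose with each. The log2 fold changes of 4930517L18Rik were 3.11 and 3.08, from 0.0428 CPM in 4OHT, which is under the floor. Gm38182 was called lower in MU only, and the rest were not called or not tested. Of all genes tested, 26.5% fell and 29.5% rose in MU, and 27.9% fell and 29.9% rose in OE.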
